A study of Mus musculus with 8 samples.

Results

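The genes described here encode the nuclear subunits of respiratory complexes II, III and IV, cytochrome c, and the subunits and inhibitor of ATP synthase. They were the 42 listed genes whose symbol, or an older name of it, stood as the gene name of a non-control probe on a single-colour Agilent array. All 42 were found, on 60 of 41174 probes, and all 42 were among the 16016 genes tested. The samples were tibialis anterior muscles, which lie at the front of the shin and are made mainly of fast fibres. They came from 8 male mice of the C57BL/6 background at 8 weeks of age, and each mouse had its own array. Of these, 4 were Prep1deltaSM, with Prep1 ablated in skeletal muscle, and 4 were Prep1f/+, with a floxed and a + allele of Prep1 by their label. The labels name no Cre line or promoter for the ablation, and no other allele or treatment was given for either group. Each mouse has its own number in the labels, and what separated the mice beyond genotype (litter, dissection day) was not given.

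Complex II (succinate dehydrogenase) passes electrons from succinate to ubiquinone, complex III passes them on to cytochrome c, and complex IV (cytochrome c oxidase) passes them to oxygen. Complexes III and IV pump protons as they do so, and ATP synthase lets the protons flow back through its membrane rotor to make ATP. Several complex IV subunits have a form made mainly in heart and skeletal muscle and another made in most tissues. Prep1, the protein of the gene Pknox1, is a homeodomain transcription factor that binds DNA together with Pbx proteins.

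The probes on which the results turn are shown first, because probes to the same transcript gave different answers for Sdha and Atp5b. The Sdha probes lie on chromosome 13, minus strand, at chr13:74465756-74465815 (at base 1512 of the transcript) and chr13:74460146-74460205 (at base 2356). Those of Atp5b lie on chromosome 10, plus strand, at chr10:127521478-127522156 (base 455, across an intron), chr10:127522569-127522628 (base 698) and chr10:127527255-127527314 (base 1689). The probe that stood for Atpif1 lies on chromosome 4, minus strand, at chr4:132086507-132086566. Positions are those of the files, in mouse build mm9, and the sequences are printed 5′ to 3′, as 60 bases for the probes further from the 3′ end and as their first 30 bases for the others.
Sdha, base 1512: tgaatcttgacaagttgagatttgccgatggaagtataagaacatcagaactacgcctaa
Sdha, base 2356: tgcagcacaagtattgttttgttcattctc
Atp5b, base 455: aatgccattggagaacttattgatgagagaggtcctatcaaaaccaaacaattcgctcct
Atp5b, base 698: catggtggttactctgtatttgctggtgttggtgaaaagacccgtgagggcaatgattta
Atp5b, base 1689: acaagagccttgattgaagatgtgatgttc
Atpif1: ccgtatcactccccacgtctgtagacacat
The longest run of bases shared by probes of different members was 14, between Atp5g2 and Atp5g1. The Cycs pair near the 3′ end shared 40 bases and the Cox7a2 pair 48, so those pairs are close to repeat measurements. The Atp5h pair overlapped less, sharing 20 of 60 bases.

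Every member was well expressed: each of the 60 probes was well above background on all 8 arrays, and none was saturated. Values are log2 signal relative to the 75th percentile of the array's non-control spots, and a gene is represented by its brightest probe. Signals of different probes are not compared with each other, since a probe's brightness also depends on its sequence. Between 23787 and 27123 of 43379 non-control spots passed that mark on each array, whose 75th percentile of signal ranged from 139 to 197. The deletion itself was visible in Pknox1, at -1.84, -2.08, -2.28 and -1.96 in the Prep1deltaSM muscles and -0.09, -0.31, -0.21 and -0.51 in the Prep1f/+ muscles. Pknox1 differed by -1.76 ± 0.13 (SE) and was the 1 gene of 16016 with an adjusted p under 0.05 (0.00624% of genes; limma, Benjamini-Hochberg). The fast-muscle markers were present on all arrays, with a median difference of -0.05 over the 10 genes.

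None of the 42 genes passed an adjusted p of 0.05, and 1, Atpif1, had an unadjusted p under 0.05 (limma), where 15.9% of all genes tested did, 10.3% as lower and 5.54% as higher in Prep1deltaSM. By the probe that stood for each gene, the inhibitor of ATP synthase was thus the member that differed most, at 73.1% of its Prep1f/+ signal. Of the 42, 27 were lower in Prep1deltaSM and 15 higher, against 62.7% of all genes lower, and their median difference of -0.07 equalled that of all genes, -0.07. The groups did not overlap for 4 members, Atpif1, Atp5l, Atp5e and Cox8a, each lower in Prep1deltaSM. Among all genes 10.5% had groups that did not overlap, 6.74% as lower and 3.72% as higher. The members' share with an unadjusted p under 0.05, 2.38%, was thus below that of all genes, and their share of groups that did not overlap was close to it. The balance of lower and higher members also turned with the scaling. Under quantile normalization 12 were lower and 30 higher, where 56.1% of all genes were lower and their median was -0.03. Of the 42, 15 changed sign, 14 of them to values within 0.1 of 0.

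**Figure D1:**
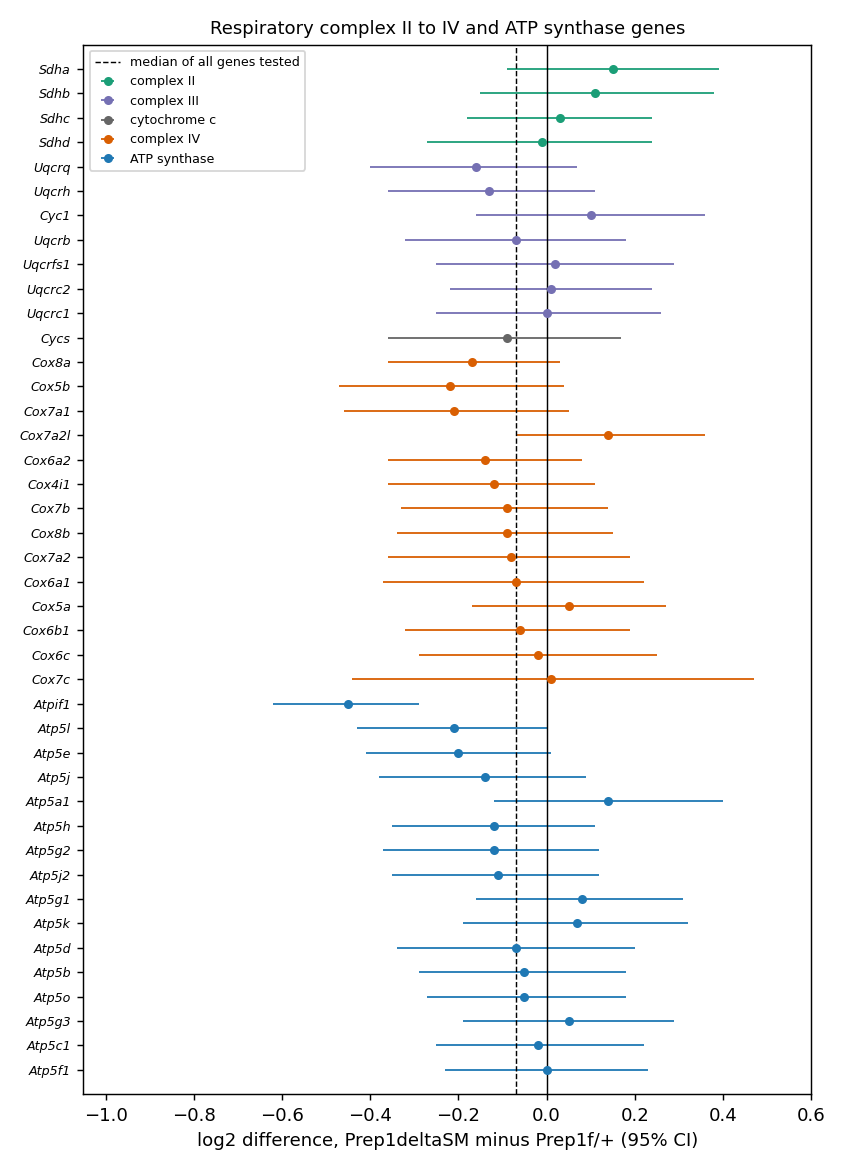
Log2 difference, Prep1deltaSM minus Prep1f/+, of each of the 42 genes with its 95% confidence interval (limma, n = 4 mice per group), coloured by complex. The dashed line is the median of all genes tested, -0.07, and Atpif1 at -0.45 is the gene whose interval lies wholly and clearly below 0.

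Succinate dehydrogenase was the complex with the highest median, 0.07 over its 4 genes, with 3 of them higher and 1 lower in Prep1deltaSM; none passed the test. Sdha encodes the flavin-carrying subunit that oxidises succinate. It read 5.26, 5.66, 5.52 and 5.60 in the Prep1deltaSM muscles and 5.38, 5.45, 5.35 and 5.26 in the Prep1f/+ muscles. Sdha was high in Prep1deltaSM replicates 2 to 4 and low in replicate 1, so the groups overlapped. The difference was 0.15 ± 0.11 (SE; adjusted p = 0.505, limma).
Sdhb encodes the iron-sulfur subunit that carries electrons from the flavin. It read 6.43, 6.90, 6.52 and 6.74 in Prep1deltaSM and 6.57, 6.63, 6.49 and 6.43 in Prep1f/+, a difference of 0.11 ± 0.12 (SE; adjusted p = 0.651, limma). Prep1deltaSM replicate 2 was the highest of the 8 and replicate 1 shared the lowest value with a Prep1f/+ muscle. The membrane anchors that hold ubiquinone showed smaller differences, 0.03 ± 0.09 for Sdhc and -0.01 ± 0.11 for Sdhd (SE).

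A probe in the interior of the Sdha transcript gave a larger difference. At base 1512, 844 bases nearer the 5′ end than the probe above, the Prep1deltaSM muscles read 3.22, 3.49, 3.24 and 3.30 and the Prep1f/+ muscles 2.91, 2.83, 2.77 and 2.73. All 4 Prep1deltaSM values lay above all 4 Prep1f/+ values, and the difference was 0.50 ± 0.09 (SE; unadjusted p = 0.000566, adjusted p = 0.0971 over 24488 probes, limma). Within each array, the interior signal minus the 3′ signal was -2.30 to -2.04 in Prep1deltaSM and -2.62 to -2.47 in Prep1f/+, a difference of 0.35 (exact two-sided permutation p = 0.0286, in a comparison chosen after the values were seen). A further, dim Sdha probe on another transcript record gave 0.11 ± 0.21 (SE).

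Complex III genes were centred on no difference, with a median of 0.00 over 7 genes, 4 higher and 3 lower, and no member past the test. The largest differences were in small subunits that surround the catalytic core. Uqcrq, one of these, read 9.62, 9.79, 9.73 and 9.85 in Prep1deltaSM and 9.85, 10.04, 9.71 and 10.03 in Prep1f/+. The difference was -0.16 ± 0.10 (SE; adjusted p = 0.466, limma), and the lowest Prep1f/+ muscle lay among the Prep1deltaSM values. Uqcrh, the hinge protein that helps cytochrome c dock on cytochrome c1, read 9.18, 9.44, 9.38 and 9.44 in Prep1deltaSM against 9.46, 9.67, 9.34 and 9.48 in Prep1f/+. Its difference was -0.13 ± 0.10 (SE; adjusted p = 0.567, limma), and a second probe 158 bases further from the 3′ end gave 0.00 ± 0.10 (SE).
The electron-carrying subunits among the members lay above 0, each by less than its SE. Cyc1, cytochrome c1, differed by 0.10 ± 0.11 and Uqcrfs1, the Rieske iron-sulfur protein, by 0.02 ± 0.12 (SE). The core proteins Uqcrc1 and Uqcrc2 stood at 0.00 ± 0.11 and 0.01 ± 0.10, and the small subunit Uqcrb at -0.07 ± 0.11 (SE). Probes disagreed in sign for Uqcrq, whose dim second probe on another transcript record gave 0.35 ± 0.15, and a second Uqcrc1 probe gave -0.06 ± 0.12 (SE).

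Cytochrome c itself, the soluble carrier between complexes III and IV encoded by Cycs, was little different. It read 7.07, 7.48, 7.27 and 7.47 in Prep1deltaSM muscles and 7.50, 7.40, 7.26 and 7.51 in Prep1f/+ muscles, a difference of -0.09 ± 0.12 (SE; adjusted p = 0.712, limma). Prep1deltaSM replicate 1 was the lowest of the 8 and the others overlapped. The 2 further probes on its transcript, 713 and 733 bases nearer the 3′ end, gave 0.03 ± 0.11 and -0.06 ± 0.12 (SE).

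Cytochrome c oxidase had the lowest median, -0.09 over 14 genes, 11 of them lower and 3 higher in Prep1deltaSM, and none passed the test. Cox8a encodes the form of subunit VIII made in most tissues. It read 4.93, 5.04, 5.08 and 5.16 in Prep1deltaSM and 5.17, 5.35, 5.18 and 5.18 in Prep1f/+. The groups did not overlap, by a margin of 0.01 between the nearest muscles, and the difference was -0.17 ± 0.09 (SE; adjusted p = 0.377, limma).
Its muscle form Cox8b read 9.18, 9.48, 9.32 and 9.55 in Prep1deltaSM and 9.37, 9.59, 9.50 and 9.44 in Prep1f/+. Here the groups overlapped, at -0.09 ± 0.11 (SE). Cox5b, which encodes a zinc-binding subunit on the matrix side, read 9.18, 9.42, 9.37 and 9.55 in Prep1deltaSM against 9.53, 9.80, 9.46 and 9.60 in Prep1f/+. Cox5b had the largest difference of the complex, -0.22 ± 0.11 (SE; adjusted p = 0.378, limma), with Prep1deltaSM replicate 4 among the Prep1f/+ values.

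The subunit VIIa genes pointed in different directions. Cox7a1, the heart and muscle form, read 9.57, 9.67, 9.66 and 9.90 in Prep1deltaSM and 9.84, 10.11, 9.75 and 9.92 in Prep1f/+, a difference of -0.21 ± 0.11 (SE; adjusted p = 0.393, limma). Cox7a2, the form of most tissues, read 7.42, 7.80, 7.55 and 7.78 in Prep1deltaSM and 7.73, 7.88, 7.73 and 7.54 in Prep1f/+, or -0.08 ± 0.12 (SE). Both sets overlapped.
Cox7a2l encodes a related protein that joins complexes III and IV into larger assemblies. It read 4.17, 4.32, 4.21 and 4.25 in Prep1deltaSM and 4.07, 4.27, 4.11 and 3.92 in Prep1f/+. Cox7a2l was higher in Prep1deltaSM by 0.14 ± 0.09 (SE; adjusted p = 0.476, limma), with 1 Prep1f/+ muscle among the Prep1deltaSM values. Whether it differed from Cox7a1 in its response was not tested.

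For subunit VIa, the muscle form Cox6a2 read 10.03, 10.14, 10.09 and 10.29 in Prep1deltaSM and 10.21, 10.45, 10.27 and 10.19 in Prep1f/+, a difference of -0.14 ± 0.10 (SE). The general form Cox6a1 read 6.53, 6.75, 6.54 and 6.70 in Prep1deltaSM and 6.41, 6.85, 6.64 and 6.93 in Prep1f/+, or -0.07 ± 0.13 (SE). None of these 8 genes passed the test. The muscle forms (Cox6a2, Cox7a1, Cox8b) and the general forms (Cox6a1, Cox7a2, Cox8a) all had differences below 0, as did 62.7% of all genes, whose median was -0.07. Under quantile normalization Cox8b, Cox7a2 and Cox6a1 were above 0 (0.06, 0.03 and 0.05), while Cox6a2, Cox7a1 and Cox8a stayed below it. The remaining 6 members lay between -0.12 and 0.05. Cox4i1, the regulatory subunit IV that binds adenine nucleotides, was at -0.12 ± 0.10 and Cox5a, its partner on the matrix side, at 0.05 ± 0.10 (SE). Cox7b, Cox6b1 and Cox6c stood at -0.09, -0.06 and -0.02. Cox7c, at 0.01 ± 0.20 (SE), was the most variable member, with an SD of 0.37 in Prep1deltaSM and 0.25 in Prep1f/+.

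By the probe that stood for each gene, ATP synthase held the largest difference of all 42 genes, in its inhibitor rather than in a subunit of the enzyme. Probes that did not stand for their gene differed as much, at 0.50 for Sdha and 0.46 for Atp5b. Atpif1 encodes the small protein that binds the catalytic head and blocks ATP hydrolysis when the proton gradient collapses. It read 4.70, 4.59, 4.67 and 4.69 in the Prep1deltaSM muscles and 5.06, 5.10, 5.12 and 5.17 in the Prep1f/+ muscles. The gap between the groups was several times the spread within either, whose SD was 0.05 in each.
The Atpif1 difference was -0.45 ± 0.07 (SE), with a 95% confidence interval of -0.62 to -0.29. Its unadjusted p was 0.000207 and its adjusted p 0.107 over 16016 genes (limma), so it did not pass the threshold, and the exact two-sided permutation p was 0.0286, the smallest that 70 assignments can give. It was lower on each of the 4 slides, by -0.40, -0.53, -0.37 and -0.50. The other Atpif1 probe, on a different transcript record, was dim and differed by 0.21 ± 0.22 (SE). Averaging both probes moved the Atpif1 value to -0.12; over all alternatives that kept the bright probe as a value of its own it lay between -0.47 and -0.34.

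Subunits of the catalytic head and of the shaft that turns in it differed by -0.20 to 0.14 at each gene's brightest probe. Atp5a1, the alpha subunit, differed by 0.14 ± 0.11 at its brighter probe and by -0.04 ± 0.10 at a probe 252 bases nearer the 3′ end (SE). Atp5c1, the gamma shaft, stood at -0.02 ± 0.10, and Atp5d, the delta subunit beside it, at -0.07 ± 0.12 (SE). Atp5e, the epsilon subunit, read 8.98, 9.25, 9.19 and 9.26 in Prep1deltaSM against 9.38, 9.47, 9.31 and 9.31 in Prep1f/+. Atp5e thus had groups that did not overlap, with a difference of -0.20 ± 0.09 (SE; adjusted p = 0.338, limma). The exact two-sided permutation p was 0.0286, which any groups of this size without overlap give.

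The Atp5b probes repeated the pattern seen for Sdha. Atp5b encodes the beta subunit, which carries the catalytic sites. At base 1689, near the 3′ end, it read 9.62, 9.84, 9.67 and 9.96 in Prep1deltaSM and 9.76, 9.96, 9.73 and 9.86 in Prep1f/+, a difference of -0.05 ± 0.10 (SE). At base 698 the Prep1deltaSM muscles read 6.18, 6.61, 6.20 and 6.39 and the Prep1f/+ muscles 5.86, 5.98, 5.74 and 5.96. That difference was 0.46 ± 0.12 (SE; unadjusted p = 0.00421, adjusted p = 0.128, limma).
The probe at base 455 gave 4.34, 4.65, 4.23 and 4.51 in Prep1deltaSM against 3.90, 4.16, 3.87 and 3.99 in Prep1f/+, or 0.45 ± 0.12 (SE; adjusted p = 0.131, limma). For both interior probes all Prep1deltaSM values lay above all Prep1f/+ values, while the groups overlapped at the 3′ probe. Within each array, the signal at base 698 minus that at base 1689 was -3.57 to -3.23 in Prep1deltaSM and -3.99 to -3.90 in Prep1f/+, a difference of 0.51 (exact two-sided permutation p = 0.0286), and base 455 gave 0.51 as well. These comparisons were also chosen after the values were seen, and any groups of this size without overlap give that p. The remaining probe, on another transcript record, gave 0.16 ± 0.22 (SE).

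The membrane rotor is a ring of identical c subunits encoded by Atp5g1, Atp5g2 and Atp5g3, whose proteins differ in the targeting sequence that is removed on import. Atp5g1 read 7.61, 7.85, 7.87 and 7.92 in Prep1deltaSM and 7.79, 7.85, 7.58 and 7.71 in Prep1f/+ (0.08 ± 0.10, SE). Atp5g2 read 7.97, 8.07, 8.19 and 8.35 in Prep1deltaSM and 8.29, 8.39, 8.11 and 8.29 in Prep1f/+ (-0.12 ± 0.11, SE). Atp5g3 read 9.14, 9.47, 9.17 and 9.38 in Prep1deltaSM and 9.20, 9.39, 9.13 and 9.24 in Prep1f/+ (0.05 ± 0.11, SE). The groups overlapped for each of the 3 genes, and no adjusted p was below 0.588 (limma).

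Subunits of the stalk that holds the head still differed by -0.14 to 0.00 at each gene's brightest probe. Atp5o, the OSCP subunit at its tip, was at -0.05 ± 0.10, Atp5h, subunit d, at -0.12 ± 0.10 and Atp5j, coupling factor 6, at -0.14 ± 0.10 (SE). Atp5f1, the b subunit, was at 0.00 ± 0.10 at its brightest probe, and a dimmer probe on another transcript record gave 0.31 ± 0.13 (SE; unadjusted p = 0.0477, adjusted p = 0.276, limma).
Among the small membrane subunits, Atp5l (subunit g) read 7.01, 7.25, 7.26 and 7.32 in Prep1deltaSM and 7.51, 7.47, 7.33 and 7.38 in Prep1f/+. Its groups did not overlap, with a difference of -0.21 ± 0.09 (SE; adjusted p = 0.32, limma). The exact two-sided permutation p was 0.0286, which any groups of this size without overlap give. Atp5k (subunit e), which sits beside Atp5l in the dimer of the enzyme, was at 0.07 ± 0.11 (SE); the files place its probe on chromosome Y and RefSeq (GRCm38.p6) places the gene on chromosome 5. Atp5j2 (subunit f) was at -0.11 ± 0.10 (SE), with a dim probe on another transcript record at 0.21 ± 0.20 (SE). The 16 genes of the complex had a median of -0.06, and 11 of them were lower in Prep1deltaSM while 5 were higher.

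**Figure D2:**
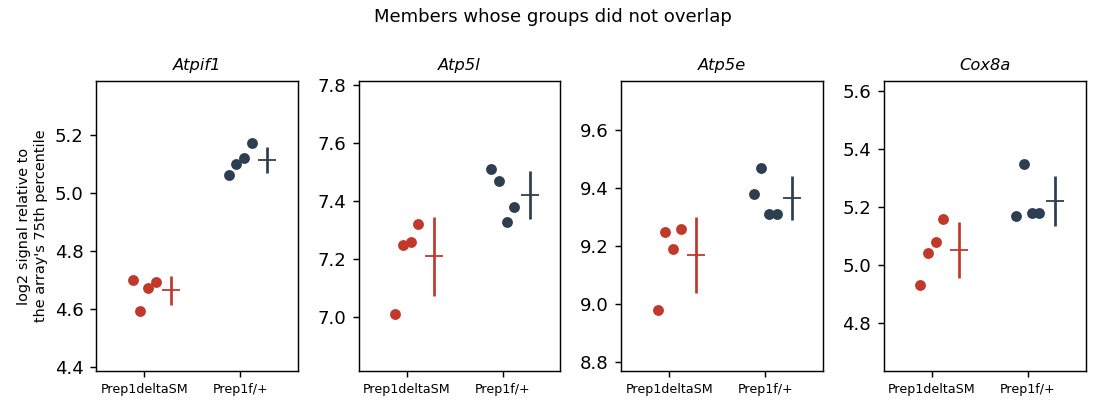
Log2 signal relative to the array's 75th percentile of the 4 genes whose groups did not overlap, with each point a mouse (replicates 1 to 4 from left to right), the horizontal tick the mean and the bar 1 SD. The gap for Atpif1 is wide against its spread, while for Atp5l, Atp5e and Cox8a the nearest muscles of the groups lie close together.

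Most members were high or low in the same muscles. Prep1deltaSM replicate 1 was the lowest of the 8 muscles for 29 of the 42 genes and was above the gene's own mean for 1 of them, where 38.8% of all genes were above theirs on that array. Prep1f/+ replicate 2 was the highest for 18 and above the gene's mean for 41, where 61.7% of all genes were. Prep1deltaSM replicate 4 was above the gene's mean for 40 members, against 46.8% of all genes. Averaged over the members, the deviation from each gene's mean was -0.20, 0.05, -0.07 and 0.11 in Prep1deltaSM and 0.04, 0.14, -0.05 and -0.02 in Prep1f/+. The lowest and the second highest of these belonged to the same group, and the groups overlapped. The median SD of the members was 0.16 in Prep1deltaSM and 0.11 in Prep1f/+, and that of all genes was 0.16 and 0.20.

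The arrays lay on 4 slides, with both genotypes once on every slide, and the 2 extreme muscles shared slide 1. There, Prep1deltaSM replicate 1 against Prep1f/+ replicate 2 gave 41 of 42 members lower, with a median of -0.33, where 63.3% of all genes were lower with a median of -0.12. On slide 2 the count was 11 lower and the median 0.11, on slide 3 it was 8 lower and 0.07, and on slide 4 it was 28 lower and -0.05. The median of all genes on slides 2 to 4 was -0.06, -0.05 and -0.02. Without slide 1, an alternative chosen after seeing the data, 14 of 42 members were lower and 28 higher, and the medians were 0.16 for complex II, 0.11 for complex III, 0.02 for complex IV and 0.04 for ATP synthase, against -0.05 for all genes. The count of lower members thus depended on slide 1 as well as on the scaling, where 62.7% of all genes were lower with slide 1 and 58.7% without it. The Atpif1 difference was -0.47 without slide 1 (adjusted p = 0.554, limma, with 3 mice per group). Atp5l, Atp5e and Cox8a were smaller without slide 1, at -0.13, -0.10 and -0.08.

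**Figure D3:**
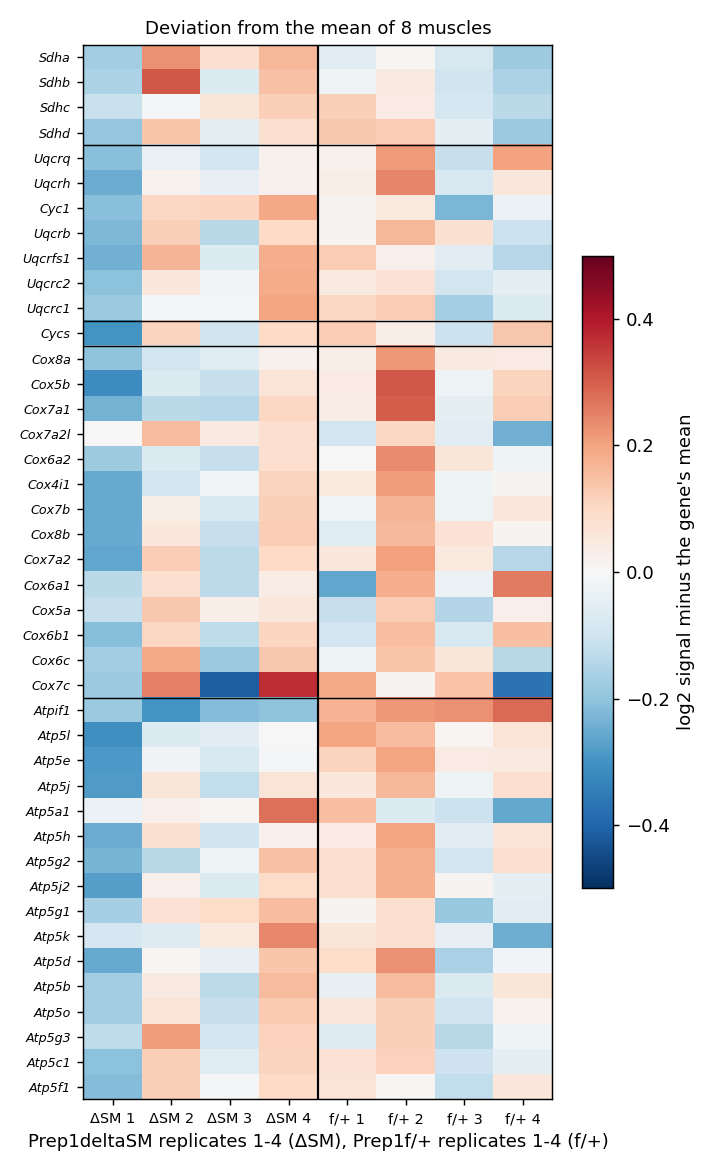
Deviation of each muscle from the gene's mean over 8 muscles (log2, colour), with genes in rows grouped by complex and muscles in columns, Prep1deltaSM left of the line and Prep1f/+ right of it. Columns are more uniform than groups: Prep1deltaSM replicate 1 is low and Prep1f/+ replicate 2 high for nearly all genes, and Atpif1 is the row that divides most clearly at the line.

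The difference between probes at Sdha and Atp5b was examined across members and then across the array, after these values had been seen. Of the 60 probes, 18 did not stand for their gene, and 5 of these 18 were higher in Prep1deltaSM at an unadjusted p under 0.05 (Sdha, Atp5b at both interior positions, Atp5f1 and Uqcrq), while 0 were lower; in the same fit, 9.66% of all probes were higher at that p and 8.09% lower. The 5 members with probes at least 200 bases apart on one transcript record were Sdha, Atp5b, Atp5a1, Atp5g2 and Cycs. The probe nearer the 5′ end had the higher difference for 4 of these 5, with Cycs the exception. Across all 4095 transcript records with such a pair of probes, the 5′ probe had the higher difference in 68.8%, with a median of 0.09 at 5′ probes and -0.04 at 3′ probes. The 5′ minus 3′ signal was separate between the groups and higher in Prep1deltaSM for 17.1% of these records, and separate and lower for 2.81%. Among the 5 members it was separate and higher for Sdha and Atp5b, and the groups overlapped for Atp5a1, Atp5g2 and Cycs (0.18, 0.02 and -0.04). The interior probes of Sdha and Atp5b thus differed in the direction in which 5′ probes differed on the whole array.
Over the 3531 records with probes at least 500 bases apart, the median 5′ minus 3′ signal, as a deviation from each record's mean, was 0.15, 0.05, 0.04 and 0.02 on the Prep1deltaSM arrays and -0.05, -0.07, -0.20 and 0.04 on the Prep1f/+ arrays. It was thus highest in Prep1deltaSM replicate 1 and lowest in Prep1f/+ replicate 3, with an overlap of the groups. Most members, 29 of 42, had a single probe, so no position could be compared for them. The part of this 5′ to 3′ shift in the Sdha and Atp5b values was not tested.

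**Figure D4:**
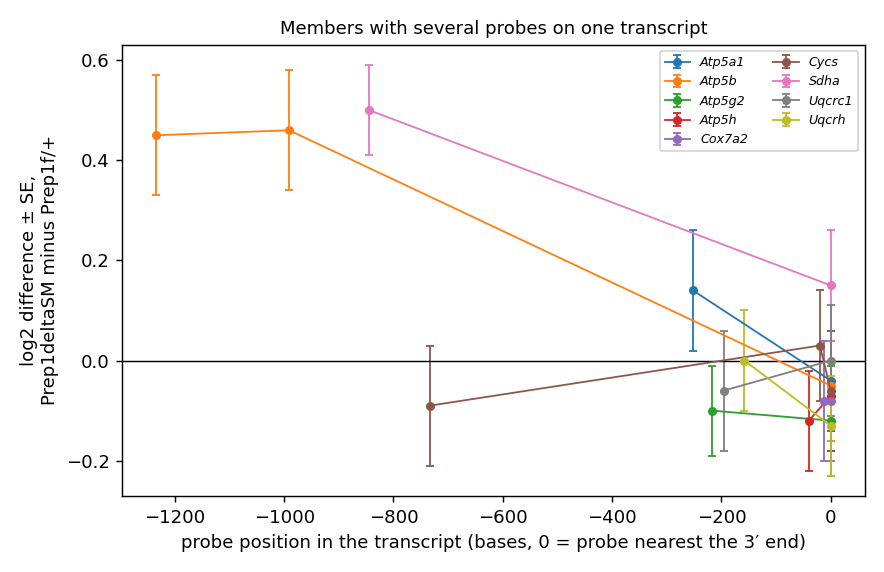
Log2 difference ± SE, Prep1deltaSM minus Prep1f/+, of each probe of the 9 members with several probes on one transcript record, against its distance in bases from the probe nearest the 3′ end. Atp5b and Sdha stand near 0.5 at the probes far from the 3′ end and near 0 or 0.15 at the 3′ probe, while Cycs does not.

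Other genes of the same machinery were counted from a list. The list held small subunits outside the 42, tissue-restricted forms, electron-transfer flavoprotein genes and subunits encoded by mitochondrial DNA. Of its 29 names, older names included, 17 were on the array and 14 were tested. Among the tested genes 12 were below 0 and 2 above it, at a median of -0.13, and 0 passed the threshold or had an unadjusted p under 0.05 (limma). Of all genes, 62.7% were below 0, at a median of -0.07. The mitochondrially encoded CYTB (complex III), COX2 (complex IV) and ATP6 (ATP synthase) differed by -0.15 ± 0.11, -0.16 ± 0.11 and -0.17 ± 0.12 (SE). Uqcr10 and Uqcr11 of complex III were at -0.13 and -0.16. The testis forms Cyct and Cox8c, and Cox7b2, were not well above background on any array.
Complex I, the first proton pump of the chain, had 36 genes tested, 27 lower and 9 higher, with a median of -0.09, and none passed the threshold. Ndufv2 and Ndufa10 were higher and Ndufb11 lower at an unadjusted p under 0.05, with differences of 0.29, 0.23 and -0.27. Of all genes, 5.54% were higher and 10.3% lower at that p. Complex I genes also followed the muscles, at -0.20, 0.07, -0.07 and 0.11 in Prep1deltaSM and 0.03, 0.14, -0.05 and -0.02 in Prep1f/+ as mean deviations.

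Markers of other fibres and cells differed between the muscles. Of all genes tested, 62.7% were lower in Prep1deltaSM, at a median of -0.07, and 10.3% were lower at an unadjusted p under 0.05 (limma). Slow-fibre genes were lower in Prep1deltaSM for 12 of 12, with a median of -0.48 and mean deviations of -0.68 to 0.03 in Prep1deltaSM and -0.38 to 0.85 in Prep1f/+. Mb, the oxygen store of oxidative fibres, differed by -0.40 ± 0.15 (SE; adjusted p = 0.266, limma). Leukocyte markers were lower for 9 of 9 tested (median -0.47; -0.65 to 0.13 in Prep1deltaSM and -0.04 to 0.59 in Prep1f/+), Csf1r, Emr1, Cd74 and Cd52 among them at an unadjusted p under 0.05. Fibroblast markers were lower for 8 of 10 (median -0.38; -0.66 to 0.33 in Prep1deltaSM and -0.14 to 0.34 in Prep1f/+), with Fbn1, Dcn, Mfap5 and Lum under that p.
Adipocyte markers were lower for 8 of 9 tested (median -0.87; -1.65 to 0.78 in Prep1deltaSM and -0.34 to 0.83 in Prep1f/+), and Lep and Ucp1, which mark white and brown adipocytes, were not well above background on any array. Heart markers were at a median of -0.16 over 5 genes (-0.17 to 0.10 in Prep1deltaSM and -0.22 to 0.53 in Prep1f/+), with Myl7 not well above background on any array. No marker gene passed the adjusted threshold. In whole muscle, fewer cells of a type and less RNA per cell cannot be told apart. The part of these markers in the members' values was not tested.

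The direction of complex IV and ATP synthase depended on how arrays were scaled, while the order of the complexes did so less. With the 75th percentile the medians were 0.07, 0.00, -0.09 and -0.06 for complexes II, III and IV and ATP synthase. With quantile normalization they were 0.15, 0.11, 0.03 and 0.05, with normexp background correction and then quantile normalization 0.17, 0.03, 0.02 and 0.05, and with the authors' values 0.12, 0.12, 0.02 and 0.06 over 36 members. Complex IV had the lowest median and complex II the highest, or tied for it, under each of these. The differences between complexes were not tested. Atpif1 stayed lower, at -0.38 with quantile normalization, -0.34 with normexp and -0.38 in the authors' values. The authors' values used were those within 0.1 log2 of the quantile-normalized intensities. They are therefore not a separate check of the order or of Atpif1.
Some members had an unadjusted p under 0.05 as higher under other scalings. With quantile normalization these were Cox5a, Cox7a2l, Cyc1 and Sdha (0.21, 0.22, 0.21 and 0.22), where 7.02% of all genes were higher at that p. With Atpif1 they made 11.9% of the members, against 15.1% of all genes in either direction. With normexp the higher members were Atp5a1, Atp5g1, Atp5g3, Atp5k, Cox7a2l, Cyc1, Sdha and Sdhb (0.13 to 0.26), where 6.89% of all genes were higher. In the other direction, Atp5e and Cox7a1, both at -0.16, joined Atpif1 with normexp, which made 26.2% of the members against 15.6% of all genes. None of the 42 passed the adjusted threshold under any alternative tried.

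**Figure D5:**
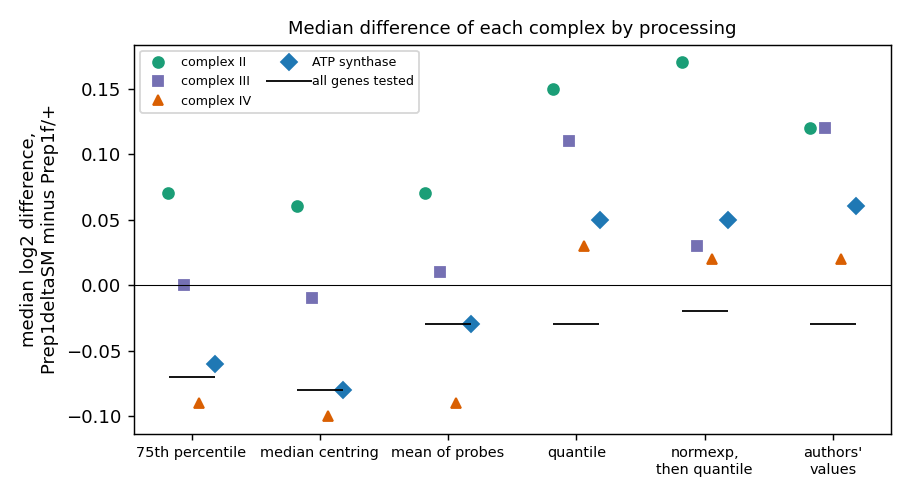
Median log2 difference of each complex, Prep1deltaSM minus Prep1f/+, under 6 ways of processing, with the black bar the median of all genes tested. Complex IV and ATP synthase lie at -0.09 and -0.06 with the 75th percentile and at 0.03 and 0.05 with quantile normalization, while the median of all genes stays below 0.

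The promoters were searched because the ablated factor binds DNA. RefSeq windows (GRCm38.p6; 250 bases before and 50 after the annotated start) were available for 33 of the 42 genes. Both strands were searched for 5 motifs: TGACAG, the core bound by Prep1 and its Meis relatives; TGATTGACA, the joint Pbx and Prep1 motif, which overlaps it; the motif of NRF1; CCGGAAG, bound by ETS factors such as GABP; and AAGGTCA, bound by estrogen-related receptors. NRF1, GABP and the estrogen-related receptors are known activators of respiratory chain genes.
TGACAG stood in 10 of 33 member promoters (30.3%), against 21.6% of the promoters of 27025 genes. The 10 genes differed by -0.45 to 0.11, with 7 lower and a median of -0.08, against a median of -0.06 for the 23 without it. The longer TGATTGACA stood in 1 of 33, Sdhb, against 0.496% of all promoters. The NRF1 motif stood in 7 of 33 (21.2%, against 3.07% of all), CCGGAAG in 11 (33.3%, against 9.93%) and AAGGTCA in 6 (18.2%, against 5.38%). Promoters differ in base composition, which these shares do not take into account, and a match to letters is not a bound site.

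The Atpif1 promoter (chr4:132535365-132535664, minus strand, GRCm38.p6) is shown because this gene differed most by the probe that stood for it, and that of Sdhb (chr4:140961021-140961320, plus strand) because it alone held the joint motif. Capitals mark the motifs. In Atpif1 these are AAGGTCA, which starts 239 bases before the annotated start, the NRF1 motif, which starts 142 bases before it, and TGACAG, at base 28 after it. In Sdhb they are TGATTGACA with the overlapping TGACAG, which begin 220 and 216 bases before the start, and CCGGAAG, at base 7 after it.
Atpif1: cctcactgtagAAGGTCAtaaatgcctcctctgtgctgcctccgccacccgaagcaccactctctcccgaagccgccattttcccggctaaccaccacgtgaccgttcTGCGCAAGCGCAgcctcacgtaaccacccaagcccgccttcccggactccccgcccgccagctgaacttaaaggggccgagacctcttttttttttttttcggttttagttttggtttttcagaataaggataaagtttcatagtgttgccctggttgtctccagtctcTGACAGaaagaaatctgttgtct
Sdhb: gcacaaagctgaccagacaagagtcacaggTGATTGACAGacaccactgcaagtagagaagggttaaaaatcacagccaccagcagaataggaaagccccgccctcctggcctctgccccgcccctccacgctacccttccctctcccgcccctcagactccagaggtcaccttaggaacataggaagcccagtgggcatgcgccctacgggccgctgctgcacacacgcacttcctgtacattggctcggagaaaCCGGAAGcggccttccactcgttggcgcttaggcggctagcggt
The Sdhb signal itself overlapped between the groups, as given above, at 0.11 ± 0.12 (SE).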

How the data were processed

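The deposited intensity (gProcessedSignal) is background-subtracted and not normalized between arrays, per the file headers, which name Feature Extraction 10.5.1.1 and its protocol GE1_107_Sep09; Agilent Feature Extraction 9.1 is the version in the submitters' processing notes. A second table deposited by the authors holds 32812 processed intensities per array, of which 26226 were within 0.1 log2 of quantile-normalized scanner intensities throughout and served as an alternative. Its scale was linear, it was not centred, and how its other values were collapsed is unknown. Here, each array's 75th percentile over non-control spots was subtracted from its log2 intensities. Non-uniform spots (0 to 11 on an array) were treated as missing, and a probe's spots were averaged. A probe was kept if 4 or more of 8 arrays had it well above background, which left 24488 of 41174, and the brightest stood for its gene.

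The test was limma's (3.58.1; lmFit, then eBayes; R 4.3.3), Benjamini-Hochberg adjusted over 16016 genes. P-values measure the spread between these mice, and having 4 arrays in a group limits the precision. In simulated data on 16016 genes, the fit recovered 35.8% of 1.5-fold changes and 73.1% of 2-fold changes and made 5 false calls. The members and lists were chosen with earlier results of these data known. Values in every muscle are given for the 2 genes of each complex with the smallest p, genes whose groups did not overlap, paralogs of complex IV and of the c subunit, and Cycs. A result for 1 gene outside the members is not reported here. The alternatives, 20 in all, cover scaling, background correction, filters, probe choice, slide, array weights and arrays left out.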

Additional observations from a re-analysis of the deposited data

Results flagged for a closer look

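Within groups of 4 muscles, a value was singled out when its gap to the nearest of the others was over 0.829 of the group's range (Dixon's test). Of 94 groups examined, 2 met this, where chance gives about 4.7. Cox8a was high in Prep1f/+ replicate 2, at 5.35 against 5.17 to 5.18 in the other Prep1f/+ muscles (ratio 0.911). The mean deviation of complex IV was high in the same muscle, at 0.18 against -0.02 to 0.00 in the others (ratio 0.903). That muscle shared slide 1 with Prep1deltaSM replicate 1.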

How the results depend on the processing

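No paired analysis by replicate number was possible, because the labels share no such numbers between groups and replicates were numbered in accession order. Pairing by slide could be fitted, and with slide as a block 27 members were lower and 1 had an unadjusted p under 0.05. Over 20 alternatives, 0 of the 42 members passed the adjusted threshold. Genes past that threshold, 1 with the settings of the report, numbered 26 with normexp (offset 50) then quantile normalization, 22 with array weights, 0 with slide as a block, 0 without slide 1, and 0 to 5 with each array left out. Leaving out Prep1deltaSM replicate 4 gave 5, and leaving out Prep1deltaSM replicate 2 or Prep1f/+ replicates 2 or 3 gave 0. Members with an unadjusted p under 0.05, 1 in the report, are given with their share and that of all genes in the same fit. There were 11 with normexp (26.2% against 15.6%), 5 with quantile normalization (11.9% against 15.1%), 2 with probes well above background on all arrays (4.76% against 17.3%), 0 when probes of a gene were averaged (against 15.7%), 4 in the authors' values (11.1% against 15.3%), 6 with array weights (14.3% against 20.8%) and 2 without slide 1 (4.76% against 8.61%). With every probe on its own there were 6 probes, of 5 members (10% of their probes against 17.8%). With each array left out there were 1 to 4 members. The lower members numbered 27 with the settings of the report, 12 with quantile normalization, 13 with normexp, 31 with median centring, 33 with array weights and 14 without slide 1; leaving out Prep1deltaSM replicate 1 gave 22 and Prep1deltaSM replicate 4 gave 33. Of 834 member values under the alternatives, 100 had the opposite sign, most within 0.1 of 0, and the cause was not tested. In the authors' values other probes stood for Atp5b, Cycs and Sdha, and with normexp for Atp5h. With normexp the reversed values were Atp5b 0.06, Atp5c1 0.10, Atp5d 0.04, Atp5h 0.02, Atp5o 0.06, Cox6a1 0.05, Cox6b1 0.01, Cox6c 0.09, Cox7a2 0.05, Cox7b 0.03, Cox8b 0.00, Sdhd 0.10, Uqcrb 0.00, Uqcrh 0.01. With quantile normalization the reversed values were Atp5b 0.11, Atp5c1 0.10, Atp5d 0.06, Atp5g2 0.00, Atp5o 0.04, Cox4i1 0.02, Cox6a1 0.05, Cox6b1 0.01, Cox6c 0.08, Cox7a2 0.03, Cox7b 0.02, Cox8b 0.06, Sdhd 0.08, Uqcrb 0.03, Uqcrh 0.03. With median centring the reversed values were Atp5f1 -0.02, Cox7c -0.00, Uqcrc1 -0.01, Uqcrc2 -0.01. With the mean of probes the reversed values were Atp5b 0.25, Atp5j2 0.05, Uqcrc1 -0.03, Uqcrq 0.10. In the authors' values the reversed values were Atp5b 0.18, Atp5c1 0.11, Atp5d 0.06, Atp5o 0.04, Cox4i1 0.02, Cox6a1 0.06, Cox6b1 0.01, Cox6c 0.08, Cox7b 0.01, Cox8b 0.05, Cycs 0.02, Sdhd 0.08, Uqcrb 0.03. With array weights the reversed values were Atp5f1 -0.01, Atp5g3 -0.01, Cox7c -0.13, Uqcrc1 -0.04, Uqcrc2 -0.03, Uqcrfs1 -0.04. Without slide 1 the reversed values were Atp5b 0.04, Atp5c1 0.08, Atp5d 0.06, Atp5j2 0.00, Atp5o 0.03, Cox6a1 0.01, Cox6b1 0.04, Cox6c 0.08, Cox7a2 0.04, Cox7b 0.02, Cox8b 0.01, Sdhd 0.09, Uqcrb 0.03. With each array left out in turn, the members that changed sign in any fit ranged as follows: Atp5c1 -0.06 to 0.05, Atp5d -0.14 to 0.00, Atp5f1 -0.04 to 0.07, Atp5g3 -0.01 to 0.10, Atp5o -0.10 to 0.00, Cox6c -0.08 to 0.04, Cox7c -0.11 to 0.15, Sdhc -0.01 to 0.08, Sdhd -0.08 to 0.05, Uqcrc1 -0.06 to 0.06, Uqcrc2 -0.05 to 0.08, Uqcrfs1 -0.04 to 0.10.

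With 4 mice per group and SEs of about 0.10, differences of the size most members showed could not be told from 0.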
